A study of Mus musculus with 18 samples.

Results

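The 9 genes described here act in blood clotting or in the dissolving of clots: F3, F7, F10, F13a1, Plau, Plaur, Thbs1, Serpinb2 and Thbd. They were chosen by name for these known roles, with earlier results of these data known, and their rows were taken from a table of RNA-seq read counts for 21734 protein-coding mouse genes. All 9 were in the table, and all 9 were among the 11357 genes kept by a filter on low counts. The depth behind them differed widely: F3 was read 4 to 44 times per library, and Plau 935 to 18755 times.

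Clotting starts when tissue factor, the product of F3, binds factor VII (F7) on a cell surface and the pair activates factor X (F10), which in turn makes thrombin. Thrombin cuts fibrinogen into fibrin, and factor XIII, whose catalytic A chain is the product of F13a1, cross-links the fibrin. Fibrin is taken apart by plasmin, which urokinase (Plau) releases from plasminogen at its cell surface receptor (Plaur). Plasminogen activator inhibitor 2 (PAI-2, from Serpinb2) blocks urokinase, thrombomodulin (Thbd) turns thrombin towards activating the anticoagulant protein C, and thrombospondin 1 (Thbs1) is a matrix and platelet protein that binds cells through Cd36, Cd47 and integrins. Macrophages are a known source of tissue factor, factor X, the factor XIII A chain, urokinase and PAI-2 outside the blood.

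The cells were bone marrow-derived macrophages (BMDMs) of 6- to 7-month-old mice on a mixed 129/B6 background, 3 mice per genotype, grown for 8 to 9 days in 10 ng/ml macrophage colony-stimulating factor (M-CSF) on dishes not treated for tissue culture. WT mice carried the intact miR-146 gene, KO mice lacked miR-146a, and 3′F mice ("non-seed swap") carried a miR-146a whose seed was kept while its 3′ part was replaced. Separate cultures of each genotype received fresh medium without LPS (resting) or with 1 ng/ml lipopolysaccharide (LPS, a bacterial trigger of inflammation) and were harvested after 16 h, which gave 6 groups of 3 libraries. Both alleles were made in embryonic stem cells and are present in every cell of the animal, and the lines were bred as separate colonies, so the allele and whatever else differs between colonies cannot be told apart. The paper states that WT controls were drawn equally from both lines, and that WT mice of either line did not differ in phenotype. The sample titles do not give the line of each WT library. The labels do not tie each culture to a mouse, so the p-values measure the spread between these libraries. With 3 mice per genotype and 3 libraries in each state, the libraries of a genotype cannot all come from different mice. The main fit treats them as independent.

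Total counts ran from 4071084 to 19818043 per library, with a median of 14614433. MiR-146a itself is not among the protein-coding genes, so the deletion was not checked here. All 8 macrophage markers (Csf1r, Adgre1 and others) were well above the floor of 3 counts in every group, and their summed level was 31772 to 87900 CPM (the read count divided by the library size in units of 1000000 reads, scaled by the TMM method). Resting KO replicate 3 stood apart from the other resting libraries: Nos2 was 9.09 CPM in it and at most 0.936 in the others, and Cxcl10 was 196 CPM against at most 24.0, both inside the range of the LPS-treated libraries, while Il1b, at 4.49 CPM, was not. Resting 3′F replicate 3 was the shallowest library and also differed from its group, so the results that rest on either library are given with and without it.

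The 2 miR-146a forms differ only outside the seed. The mature sequence below is from RefSeq (chr11:43374435-43374456 on the minus strand of GRCm38), and the other lines are the guide strands of the synthetic mimics that the study designed for each allele. Capitals mark the seed, bases 2 to 8. Of the 20 bases compared, 8 differ, all between positions 13 and 20.
mmu-miR-146a-5p: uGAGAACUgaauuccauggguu
WT mimic: uGAGAACUgaauuccauggg
3′F mimic: uGAGAACUgaauaagugucc

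A seed match is a stretch of a 3′ UTR that pairs with the seed. None of the 9 genes held a match of 7 or 8 bases in its longest annotated 3′ UTR, whereas 20.6% of the tested genes did (2323 of 11302). The single 6-base match was in Thbd, at position 89 of its 3′ UTR (chr2:148406111-148406132, minus strand, GRCm38), shown here with its match in capitals because it is the sole site among the 9 genes.
Thbd site: ccagctgtGTTCTCtggcaact

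Promoter windows of RefSeq (GRCm38.p6, 250 bases before to 50 after a start) were present for F3, F7, F10, F13a1, Plaur and Serpinb2. An AP-1 motif (TGANTCA, read on both strands) lay in 7.81% of the 32851 windows and an NF-kB motif (GGNNTTTCC, both strands) in 5.82%. F3 held AP-1 motifs 146 and 135 bases and an NF-kB motif 112 bases before its start, Plaur an AP-1 motif at 69 bases and Serpinb2 one at 94 bases. A second window of Serpinb2 overlaps the first and holds the same motif, and a second window of F13a1 held an NF-kB motif at 128 bases. F7 and F10 had neither in their windows. The stretches from 160 to 61 bases before the start are shown for F3, Plaur and Serpinb2, whose first windows held the motifs, and for F10, which held none, on the plus strand and with the motifs in capitals. No motif was tested against a result. They come from chr3:121723377-121723476 (F3), chr8:13037148-13037247 (F10), chr7:24462323-24462422 (Plaur) and chr1:107511263-107511362 (Serpinb2).
F3: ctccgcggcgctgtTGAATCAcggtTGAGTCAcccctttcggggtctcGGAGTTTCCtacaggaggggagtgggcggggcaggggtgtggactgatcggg
F10: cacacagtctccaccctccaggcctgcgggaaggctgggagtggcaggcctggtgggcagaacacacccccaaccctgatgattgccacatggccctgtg
Plaur: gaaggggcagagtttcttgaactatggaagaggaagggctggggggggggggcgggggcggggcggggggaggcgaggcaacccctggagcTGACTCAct
Serpinb2: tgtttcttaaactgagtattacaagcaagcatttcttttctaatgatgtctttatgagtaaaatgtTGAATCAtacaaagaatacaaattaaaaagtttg

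The genes lie apart in the genome except for F7 (chr8:13026034-13035809) and F10 (chr8:13037308-13056676), which are neighbours on the plus strand of GRCm38 with 1498 bases between them. Plau lies at chr14:20836660-20843385, Plaur at chr7:24462484-24475968, Serpinb2 at chr1:107511423-107535478 and F3 at chr3:121723537-121735048, all on the plus strand, as is Thbs1 at chr2:118111876-118127133. F13a1 (chr13:36867178-37050244) and Thbd (chr2:148404466-148408188) are on the minus strand. F13a1 and Thbs1 overlap genes on the opposite strand, which the strand-specific counting keeps apart. Part of Serpinb2 overlaps Serpinb10 on the same strand, and reads that fit both could not be assigned with certainty.

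On a scale that allows levels of different genes to be compared, CPM per kilobase of gene model, urokinase stood out among the 9 genes. Plau was at 373 ± 33.0 (SD, n = 3) in resting WT cells, followed by Thbs1 at 62.3 ± 29.7 and Plaur at 49.0 ± 4.14. F7, F10 and Thbd lay between 6.57 and 9.55, F13a1 was at 2.51, and F3 and Serpinb2 were the lowest, at 0.618 and 0.394. After LPS the order in WT cells changed: Plau was at 84.1 ± 5.96, F10 came next at 58.3 ± 19.8, and Serpinb2 was at 7.18 ± 4.72, above F13a1, Thbd and F3. In LPS-treated KO cells F10 (75.3 ± 12.6) was above Plau (30.8 ± 2.91), and Serpinb2 had come up to 32.3 ± 6.32.

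**Figure D1:**
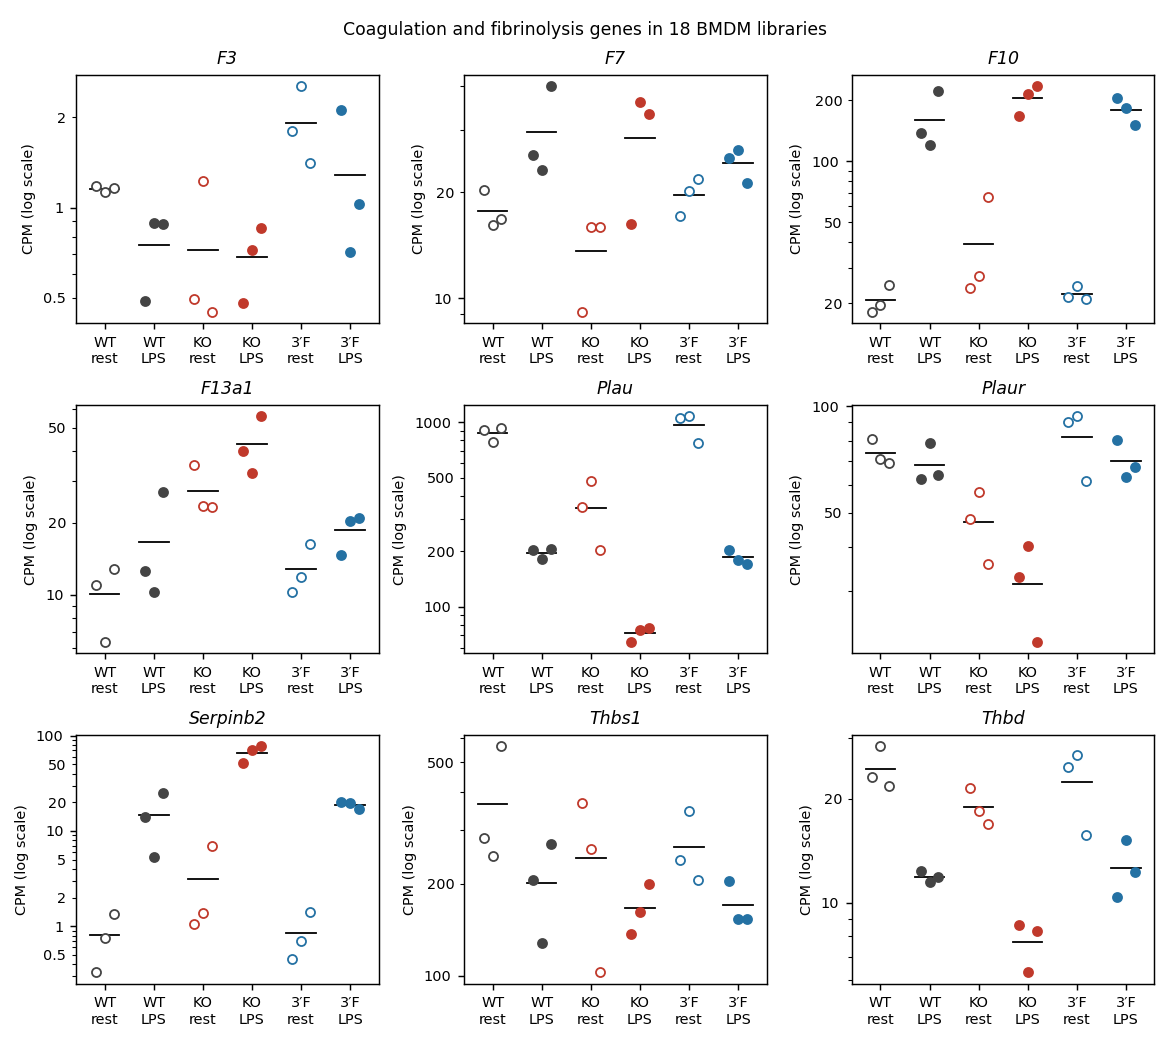
Level of each gene in the 18 libraries, in CPM on a log axis whose range differs between panels; open circles are resting and filled circles LPS-treated libraries, and the bar is the group mean (n = 3). F10 and Serpinb2 are higher and Plau and Thbd lower with LPS in each genotype, and within each state the KO libraries lie below the WT libraries for Plau and above them for F13a1.

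LPS treatment was compared with rest within each genotype, in one edgeR quasi-likelihood fit of all libraries with Benjamini-Hochberg adjustment over the 11357 genes. In WT cells F10 and Serpinb2 rose and Plau and Thbd fell, which is 4 of the 9 genes, against 28.5% of all genes tested (16.3% higher and 12.3% lower). In KO cells the same 4 genes moved the same way and F7 rose as well (5 of 9, against 26.9%, with 14.3% higher and 12.6% lower). In 3′F cells the 4 genes alone passed, against 31.2% (17.2% higher and 14.0% lower). The median absolute log2 fold change of the 9 genes was 0.86 in WT, 1.07 in KO and 0.64 in 3′F cells, where it was 0.29, 0.30 and 0.34 over all genes tested. As the RNA came from whole cultures, fewer cells that express a gene and less of its RNA per cell cannot be told apart.

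Of the genes that start clotting, F10 responded most. F10, the zymogen of the protease that makes thrombin, was at 18.1, 19.7 and 24.6 CPM in the resting WT libraries and at 137, 120 and 221 CPM with LPS. It rose 7.68-fold (95% interval 4.73 to 12.5, adjusted p = 8.88e-06, edgeR). In KO cells it was at 23.9, 27.1 and 66.6 CPM at rest and at 168, 214 and 235 CPM with LPS. The LPS libraries of either genotype lay above all its resting libraries, and the highest resting value belonged to KO replicate 3. F10 rose 5.28-fold in KO cells (adjusted p = 4.09e-05, edgeR), and its log2 fold change went from 2.40 ± 0.32 (SE) to 3.01 without that library. The 3′F libraries went from 21.4, 24.5 and 21.1 to 204, 183 and 152 CPM, an 8.02-fold rise (adjusted p = 6.74e-06, edgeR).

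F7, the partner of tissue factor, moved less. Its WT libraries were at 20.3, 16.1 and 16.8 CPM at rest and 25.5, 23.1 and 40.1 CPM with LPS, so the groups did not overlap, but the log2 difference of 0.73 ± 0.28 did not pass the test (adjusted p = 0.0566, edgeR) and passed in 8 of the 25 alternatives. In KO cells F7 was at 9.15, 15.9 and 15.9 CPM at rest and at 16.3, 36.1 and 33.5 CPM with LPS, and rose 2.11-fold (adjusted p = 0.00907, edgeR). That call was lost when only the KO libraries were fitted (adjusted p = 0.0786) and without resting replicate 1 or LPS replicate 2. In 3′F cells the log2 difference was 0.32, with an interval of -0.28 to 0.91. The response of KO cells did not pass as different from that of WT cells (log2 difference 0.34, interval -0.49 to 1.17).

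F3, the gene of tissue factor, stayed near the lower limit of the data. It was at 1.18, 1.13 and 1.16 CPM in resting WT cells and at 0.489, 0.887 and 0.880 CPM with LPS, or 7 to 18 counts per library. All 3 LPS libraries were below the resting ones, but the log2 difference of -0.62 ± 0.46 did not pass (adjusted p = 0.344, edgeR). In KO and 3′F cells the difference was -0.09 and -0.64, also without a call, and the intervals reached from -1.13 to 0.94 and from -1.53 to 0.26. At this depth the intervals leave room for changes of those sizes.

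F13a1, which makes the fibrin cross-linking chain, was at 11, 6.33 and 12.9 CPM in resting WT cells and at 12.6, 10.3 and 27.0 CPM with LPS. The groups overlapped in each genotype, and the log2 differences with LPS were 0.73 (adjusted p = 0.13), 0.64 (0.161) and 0.58 (0.216) in WT, KO and 3′F cells by edgeR. None passed.

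The genes of plasminogen activation moved in opposite directions. Plau, the gene of urokinase, was at 904, 786 and 932 CPM in resting WT cells and at 203, 181 and 207 CPM with LPS, a 4.44-fold fall (adjusted p = 5.07e-06, edgeR). In KO cells it was at 346, 484 and 204 CPM at rest and at 64.4, 75.0 and 77.1 CPM with LPS, a 4.78-fold fall (adjusted p = 2.51e-06, edgeR). The 3′F libraries went from 1059, 1081 and 771 to 204, 181 and 172 CPM, a 5.23-fold fall (adjusted p = 1.72e-06, edgeR). In each genotype the lowest resting library was well above the highest LPS library, and these 3 calls held in each of the 25 alternatives tried.

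Serpinb2, the gene of the urokinase inhibitor PAI-2, had the largest fold change of the 9 genes. In WT cells it was at 0.328, 0.753 and 1.35 CPM at rest, which is 5 to 14 counts, and at 14.2, 5.39 and 24.8 CPM with LPS. It rose 19.2-fold, with a wide interval of 6.95 to 52.8 (adjusted p = 0.000281, edgeR). The KO libraries went from 1.05, 1.38 and 6.96 to 52.1, 70.0 and 77.5 CPM, a 23.5-fold rise (adjusted p = 3.18e-05, edgeR). Resting KO replicate 3 was again the highest resting library, and without it the log2 fold change was 5.78 in place of 4.55 ± 0.59. In 3′F cells Serpinb2 went from 0.452, 0.695 and 1.40 to 19.9, 19.4 and 16.8 CPM, a 27.1-fold rise (adjusted p = 0.00014, edgeR).

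Plaur, the urokinase receptor, differed less with LPS than its ligand. It was at 80.9, 71.0 and 69.3 CPM in resting WT cells and at 62.1, 79.0 and 64.0 CPM with LPS, groups that overlapped, with a log2 difference of -0.11 and an interval of -0.56 to 0.34. In 3′F cells the difference was -0.23, with an interval of -0.68 to 0.22. In KO cells it was -0.58 ± 0.22, just outside the threshold (adjusted p = 0.0574, edgeR). It passed in 9 of the 25 alternatives, among them DESeq2 (adjusted p = 0.0247), limma-voom (0.000496) and the fit without resting replicate 3 (log2 difference -0.74, adjusted p = 0.0147, edgeR).

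Thbd, the thrombin receptor on the path to protein C, fell in all 3 genotypes. The WT libraries went from 23.2, 28.4 and 21.8 to 12.4, 11.5 and 11.9 CPM, a 2.06-fold fall (adjusted p = 0.00072, edgeR). The KO libraries went from 21.5, 18.4 and 17.0 to 8.61, 6.30 and 8.27 CPM, a 2.46-fold fall (adjusted p = 0.00013, edgeR). The 3′F libraries went from 24.7, 26.8 and 15.7 to 10.4, 15.2 and 12.3 CPM, a 1.8-fold fall (adjusted p = 0.00332, edgeR). The groups did not overlap in any genotype, and in 3′F cells the margin was narrow, with resting replicate 3 at 15.7 CPM. The calls of F10, Plau, Serpinb2 and Thbd in 3′F cells all held without that library.

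Thbs1 was abundant but varied widely between replicates. It was at 283, 246 and 564 CPM in resting WT cells and at 205, 128 and 270 CPM with LPS, and resting KO cells ranged from 102 to 368 CPM. The log2 differences with LPS were -0.86 in WT, -0.55 in KO and -0.64 in 3′F cells, none past the test (adjusted p = 0.12, 0.328 and 0.23, edgeR). Without resting KO replicate 3, which had the lowest resting value, Thbs1 passed in KO cells (log2 difference -0.92, adjusted p = 0.0463, edgeR) and also in WT cells (adjusted p = 0.044).

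**Figure D2:**
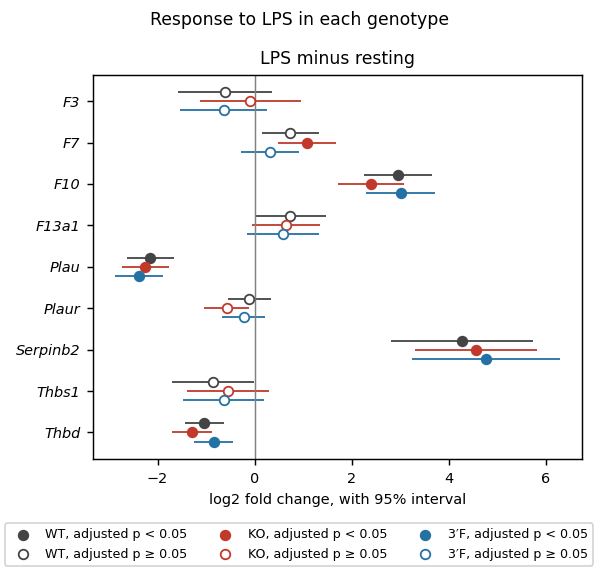
Log2 fold change of LPS-treated over resting cells for each gene and genotype, with its 95% interval; filled points passed an adjusted p of 0.05 by edgeR. F10 and Serpinb2 lie to the right of 0 and Plau and Thbd to the left in all 3 genotypes, and the intervals of the genotypes overlap for every gene.

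Whether the response to LPS differed between genotypes was tested directly. The difference of responses between KO and WT cells passed for none of the 9 genes (against 0.00881% of all genes, 1 gene), and none had an unadjusted p under 0.05 in the edgeR fit, where 560 of the 11357 genes tested did. The intervals were still wide: they ran from -0.76 to 0.55 for Plau, from -1.11 to 0.17 for Plaur, from -1.46 to 0.39 for F10 and from -1.84 to 2.43 for Serpinb2, in log2 units. Between 3′F and WT cells no gene tested passed (0%, with 203 of the 11357 genes at an unadjusted p under 0.05) and none of the 9 genes had an unadjusted p under 0.05. DESeq2 called none of the 9 genes in either test.

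The genotypes were then compared within each state. At rest, F13a1 was higher and Plau lower in KO than in WT cells, 2 of the 9 genes, against 9.40% of all genes tested (5.12% higher and 4.27% lower). With LPS, F13a1 and Serpinb2 were higher and Plau and Plaur lower, 4 of the 9 genes, against 4.79% (1.89% higher and 2.90% lower). The median absolute log2 difference of the 9 genes was 0.65 at rest and 0.62 with LPS, where it was 0.20 and 0.18 over all genes tested. The summed level of the macrophage markers also differed between the genotypes without overlap, at 60518 to 62440 CPM in KO and 31772 to 47835 CPM in WT cells at rest and at 71189 to 87900 against 45543 to 59936 CPM with LPS. Lyz2 held most of this sum (53039 to 55434 against 26461 to 42604 CPM at rest). Lyz2 and Csf1r were higher in KO cells without overlap in both states, Fcgr1 and Mertk at rest and Adgre1 with LPS. Itgam was lower in KO cells without overlap in both states (with LPS 214 to 223 against 270 to 368 CPM). Cd68 was lower with LPS (669 to 729 against 764 to 850 CPM). The part of these markers in the results was not tested.

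Plau was lower in every KO library than in any WT library of the same state. At rest the KO libraries were at 204 to 484 CPM and the WT libraries at 786 to 932 CPM, and the level was 2.53-fold lower in KO cells (log2 difference -1.34 ± 0.22, adjusted p = 0.00245, edgeR). With LPS the KO libraries were at 64.4 to 77.1 CPM and the WT libraries at 181 to 207 CPM, a 2.73-fold lower level (log2 difference -1.45 ± 0.22, adjusted p = 0.00167, edgeR). Without resting KO replicate 3 the difference at rest was -1.07 (adjusted p = 0.00197, edgeR). The resting call was lost when only the resting WT and KO libraries were fitted (adjusted p = 0.0555), and the call with LPS held in each of the 25 alternatives.

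The order of the groups for Plau was resting 3′F (970 ± 173 CPM), resting WT (874 ± 77.3), resting KO (345 ± 140), WT with LPS (197 ± 13.9), 3′F with LPS (186 ± 17.0) and KO with LPS (72.2 ± 6.82). Neighbours in this order overlapped except resting WT and resting KO, and 3′F and KO with LPS. The resting KO group touched the LPS-treated WT group through replicate 3 alone, at 204 CPM.

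Plaur was at 48.0, 57.3 and 35.8 CPM in resting KO cells, below the WT libraries (69.3 to 80.9 CPM), but its log2 difference of -0.65 ± 0.21 did not pass (adjusted p = 0.0712, edgeR) and passed in 6 of the 25 alternatives. With LPS it was at 32.9, 40.3 and 21.5 CPM in KO and 62.1 to 79.0 CPM in WT cells, and was 2.17-fold lower (adjusted p = 0.00766, edgeR). That call held in each of the 25 alternatives. The difference at rest moved to -0.49 without resting KO replicate 3, which held the lowest value.

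Serpinb2 was at 52.1 to 77.5 CPM in LPS-treated KO cells and at 5.39 to 24.8 CPM in LPS-treated WT cells, 4.51-fold higher in KO cells (95% interval 2.16 to 9.41, adjusted p = 0.0214, edgeR). The groups did not overlap, yet the call was lost in 4 of the 25 alternatives, each of them leaving out 1 LPS-treated library of WT or KO cells, with adjusted p up to 0.097. At rest the log2 difference of 1.88 ± 0.79 did not pass (adjusted p = 0.16, edgeR) and was 0.66 without resting KO replicate 3. The summed level of 5 monocyte markers moved with this result: it was 102 to 150 CPM in LPS-treated KO and 46.2 to 100.1 CPM in LPS-treated WT cells, mostly through Ly6c2 (61.0 to 99.9 against 15.1 to 30.0 CPM), and its part in the result was not tested. All 5 monocyte markers were above the floor in every group.

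F13a1 was at 35.0, 23.5 and 23.4 CPM in resting KO cells and at 11, 6.33 and 12.9 CPM in resting WT cells, a 2.73-fold higher level (log2 difference 1.45 ± 0.35, adjusted p = 0.0153, edgeR). With LPS the KO libraries were at 40.2, 32.2 and 56.1 CPM and the WT libraries at 12.6, 10.3 and 27.0 CPM, a 2.58-fold higher level (adjusted p = 0.0281, edgeR). The groups did not overlap in either state. The call at rest was lost without resting WT replicate 2 or resting KO replicate 1 (adjusted p up to 0.0798), and the call with LPS was lost in 5 of 25 alternatives (adjusted p up to 0.149). Some monocyte and macrophage markers were also higher in resting KO cells without overlap. Ccr2 was at 28.3 to 44.2 CPM against 20.0 to 22.5 CPM in WT cells and Ly6c2 at 3.09 to 28.5 against 0.920 to 1.74. Csf1r was at 2786 to 3255 against 1443 to 1941 and Lyz2 at 53039 to 55434 against 26461 to 42604. Fcgr1 and Mertk were higher as well. Itgam was lower without overlap, at 130 to 166 against 238 to 249 CPM, and the other listed monocyte and macrophage markers overlapped. The summed monocyte list overlapped too, at 57.0 to 68.9 CPM in KO and 41.5 to 70.9 CPM in WT cells. F13a1 is a known platelet gene as well. Of the platelet markers, Ppbp and Itga2b were at most 3.37 and 1.17 CPM in any library, Gp1ba and Gp9 were at or near 0, and Gp6 was at 1.65 to 3.78 CPM in LPS-treated KO and at 0.440 to 0.628 CPM in LPS-treated WT cells. Pf4, which held most of the summed level of that list (112 to 593 CPM), was at 108 to 335 CPM at rest and 295 to 381 CPM with LPS in KO cells, and at 339 to 493 and 421 to 590 CPM in WT cells. The part of these markers in the F13a1 results was not tested.

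The other genes did not pass between KO and WT cells. F10 was at 23.9, 27.1 and 66.6 CPM in resting KO cells against 18.1 to 24.6 CPM in WT cells, a log2 difference of 0.91 ± 0.32 (adjusted p = 0.0865, edgeR) that was 0.30 without replicate 3. Thbd was lower in all 3 LPS-treated KO libraries (6.30 to 8.61 CPM) than in the WT libraries (11.5 to 12.4 CPM), with a log2 difference of -0.62 ± 0.20 that did not pass (adjusted p = 0.0803, edgeR). It passed in 5 of the 25 alternatives, among them DESeq2 (adjusted p = 0.0397) and limma-voom (0.0256). For F3, F7 and Thbs1 the log2 differences ran from -0.65 to -0.39 at rest and from -0.28 to -0.05 with LPS.

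**Figure D3:**
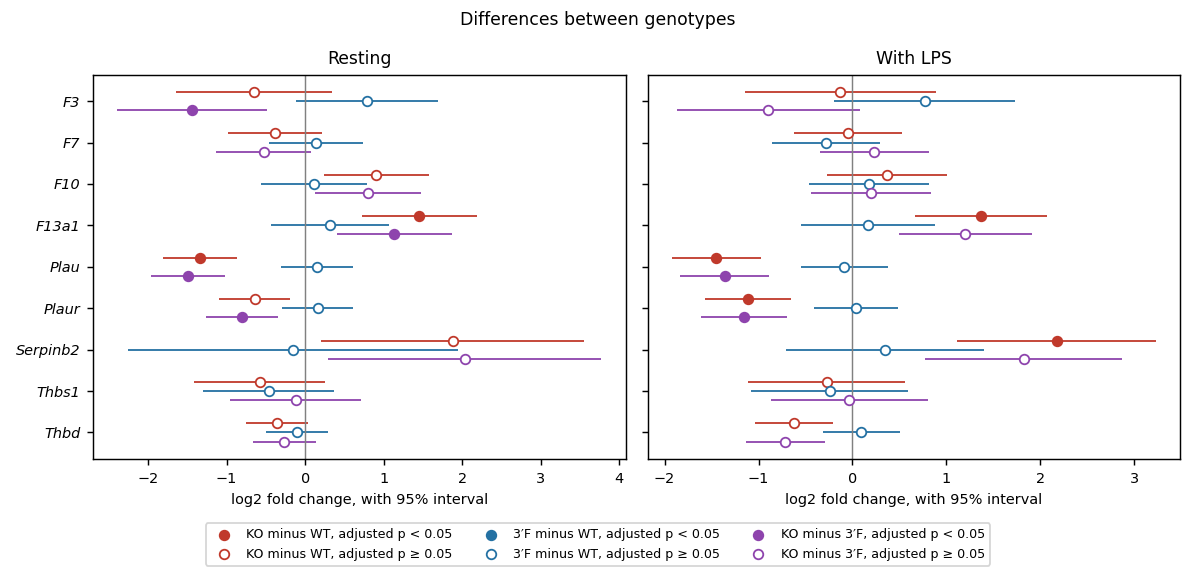
Log2 differences between genotypes at rest and with LPS, with 95% intervals; filled points passed an adjusted p of 0.05 by edgeR, and the 2 panels have different x axes. KO minus WT and KO minus 3′F, which share the KO libraries, lie on the same side of 0 for every gene except F7 with LPS. Every 3′F minus WT interval includes 0.

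The 3′F cells, which keep the seed, were compared with WT cells by the same test. None of the 9 genes passed at rest, where no gene tested did (0%, with 557 of the 11357 genes at an unadjusted p under 0.05 by edgeR), or with LPS, where 1 did (0.00881%, with 106 of the 11357 genes at an unadjusted p under 0.05). No unadjusted p of the 9 genes was under 0.05, and DESeq2 called none. The log2 difference of Plau was 0.15 at rest (interval -0.31 to 0.61) and -0.09 with LPS (-0.55 to 0.38), that of Plaur 0.16 (-0.29 to 0.61) and 0.04 (-0.41 to 0.49), and that of Thbd -0.10 (-0.49 to 0.30) and 0.09 (-0.31 to 0.50). For F13a1 the intervals were -0.44 to 1.07 and -0.55 to 0.88, and for F10 -0.57 to 0.79 and -0.47 to 0.81. They were widest for Serpinb2 (-2.25 to 1.94 at rest and -0.70 to 1.40 with LPS) and for F3 (-0.11 to 1.69 and -0.19 to 1.73). These data therefore leave room for differences of those sizes.

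KO cells were also set against 3′F cells, a comparison that shares its KO libraries with the one against WT. At rest F13a1 was higher and Plau, Plaur and F3 lower in KO cells, 4 of the 9 genes, against 12.9% of all genes tested (6.79% higher and 6.10% lower). With LPS Plau and Plaur were lower, 2 of the 9 genes, against 3.88% (1.51% higher and 2.37% lower). Plau was 2.81-fold lower at rest (adjusted p = 0.00149, edgeR) and 2.57-fold lower with LPS (adjusted p = 0.00347, edgeR). Plaur was 1.75-fold lower at rest (61.6 to 93.8 CPM in 3′F cells, adjusted p = 0.0245, edgeR) and 2.22-fold lower with LPS (63.0 to 80.2 CPM in 3′F cells, adjusted p = 0.00778, edgeR). F13a1 was 2.20-fold higher at rest (adjusted p = 0.0417, edgeR). F3 was 2.72-fold lower at rest, at 0.449 to 1.22 CPM against 1.40 to 2.55 CPM (adjusted p = 0.0454, edgeR), on 4 to 44 counts.

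All 4 resting calls against 3′F cells were lost when only these groups were fitted, with adjusted p = 0.126 for Plau (edgeR). F3 lost its call in 19 of 25 alternatives (adjusted p up to 0.254), and without resting KO replicate 3 the calls of F3 (adjusted p = 0.105), Plaur (0.0754) and F13a1 (0.0511) were lost. Without both resting KO replicate 3 and resting 3′F replicate 3, an alternative chosen after the data were seen, Plau (log2 difference -1.34), Plaur (-0.78) and F13a1 (1.43) passed and F3 did not. With LPS, Serpinb2 (log2 difference 1.82 ± 0.49), Thbd (-0.72 ± 0.20) and F13a1 (1.20 ± 0.33) were just outside the threshold (adjusted p = 0.0502, 0.0537 and 0.0554, edgeR), and in each the KO and 3′F libraries did not overlap. They passed in 11, 6 and 10 of the 25 alternatives.

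Urokinase and PAI-2 RNA ran in opposite directions across the libraries. The Pearson correlation of their log2 CPM was -0.95 over the 18 libraries, -0.81 within the 9 resting and -0.81 within the 9 LPS-treated libraries, and -0.48 over the resting libraries without KO replicate 3. These are descriptions of libraries that fall into treatment and genotype groups. Resting KO replicate 3, with 204 CPM of Plau and 6.96 CPM of Serpinb2, lay among the LPS-treated WT libraries (181 to 207 and 5.39 to 24.8 CPM). Plau and Plaur, ligand and receptor, had correlations of 0.96 within the resting and 0.89 within the LPS-treated libraries, and F13a1 and Plaur one of -0.90 within the LPS-treated libraries.

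**Figure D4:**
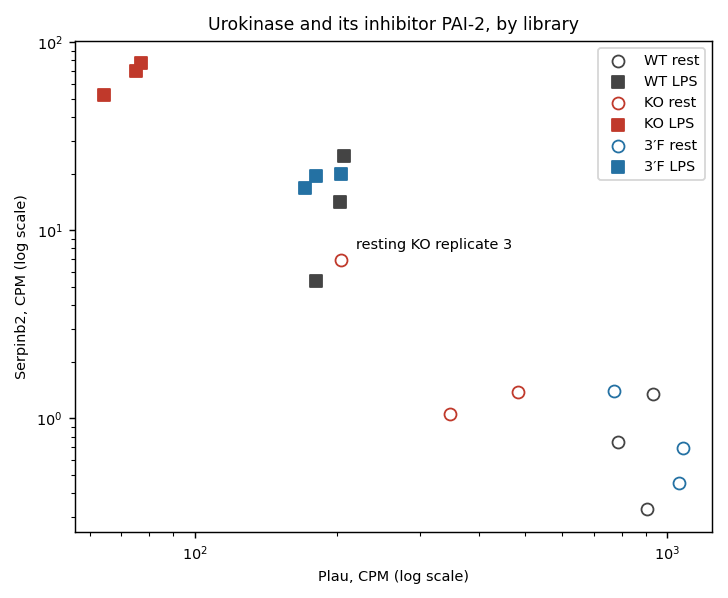
Serpinb2 against Plau in each of the 18 libraries, both in CPM on log axes; circles are resting and squares LPS-treated libraries, coloured by genotype. The LPS-treated KO libraries lie at the upper left (64.4 to 77.1 CPM of Plau), the resting WT and 3′F libraries at the lower right, and resting KO replicate 3 lies among the LPS-treated WT libraries.

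The genes whose log2 CPM followed each member most closely over the 18 libraries were found by Pearson correlation. For Plau they were Lama3 (r = 0.99), Fam198b and Entpd1 (0.98 each), of which Lama3 makes a laminin chain and Entpd1 an enzyme that breaks down extracellular ATP. For F10 they were Ccl5, a chemokine gene, Car13 and Naip2 (0.99 each). Serpinb2 was closest to Lrrc4, Ms4a6d and Ly6c2 (0.98 each), the last being the monocyte marker named above, and Thbd to Dusp3, Gnpda1 (0.98 each) and Pdlim5 (0.97). F13a1 was closest to Sorl1 (0.92), Ahrr (0.90) and Lyz1 (0.89), and Plaur to Zfp111 (0.93), Mindy2 (0.92) and Cpe (0.90). Lyz1 is a lysozyme gene and Sorl1 makes a sorting receptor. For F7 the closest were Rab18 (0.90), Bcap31 and Wfdc17 (0.89 each), and for Thbs1 Pla2g15 (0.85), Gpr162 (0.83) and Ubxn7 (0.81). F3, with its few counts, had the loosest match, Wrb at 0.81. All these values rest on groups that differ in treatment and genotype.

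A wider list of 50 other clotting and fibrinolysis genes gave the surroundings of the 9 genes. Of these, 26 passed the filter. Several genes of factors known mainly from the liver were nearly silent, with at most 3 counts in any library for F2, F11, F12, Fga, Fgb, Fgg, Plg and Proc. Others were read: Pros1 was at 42.9 to 52.3 CPM in group means, F5 at 3.01 to 5.73 and F9 at 0.568 to 1.07, beside the members F7 and F10. None of the 4 protease-activated receptor genes (F2r, F2rl1, F2rl2, F2rl3) passed the filter. Tissue plasminogen activator (Plat) had at most 6 counts in a library.

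With LPS 9 of the 26 genes passed in WT (4 higher, 5 lower), 8 in KO (3 higher, 5 lower) and 11 in 3′F cells (4 higher, 7 lower), or 34.6%, 30.8% and 42.3%, where 28.5%, 26.9% and 31.2% of all genes tested passed. Over the 25 alternatives these counts ran from 6 to 14, from 4 to 17 and from 7 to 19. In the anticoagulant list, Procr, the endothelial protein C receptor, rose in all 3 genotypes (log2 fold change 1.89, 1.42 and 1.60 in WT, KO and 3′F cells), whereas Gas6 fell in all 3 (-1.69, -1.58 and -1.64). Gas6 was listed there as a vitamin K-dependent relative of protein S, but it is a ligand of TAM receptors that supports platelet aggregation, not an anticoagulant. Itgb3, the integrin beta chain that binds thrombospondin and vitronectin, fell by 2.59, 1.99 and 2.17, and Itgav, its alpha partner, fell by 0.50, 0.62 and 0.53 on the log2 scale. Cd47, a thrombospondin receptor, rose in WT (1.29) and 3′F cells (1.25). In KO cells Cd47 did not pass, with resting libraries at 185, 207 and 471 CPM, the last being replicate 3, and LPS-treated ones at 436, 468 and 418 CPM. In the plasminogen system, Eno1, a glycolytic enzyme that also binds plasminogen, rose in all 3 (0.95, 0.77 and 1.22), and Lrp1, a receptor that clears protease and inhibitor complexes, fell in WT (-0.79) and KO cells (-0.62). Of the procoagulant genes Vwf fell in all 3 (-0.92, -1.02 and -0.73) and Lman1, a cargo receptor for clotting factors, rose slightly in WT and KO cells (0.30 each). In 3′F cells F8 (-1.26), Vkorc1l1 (-0.47) and Cd36 (-0.67) also fell and Ano6 (0.74), a phospholipid scramblase, rose. Without resting 3′F replicate 3 the calls of F8 in 3′F cells (adjusted p = 0.118) and Lman1 in KO cells (0.0533) were lost and Ano6 was at 0.43, and without resting KO replicate 3 that of Lrp1 in KO cells was lost (0.0559) and Eno1 was at 1.18 there (edgeR). Without both libraries Lman1 (adjusted p = 0.0115) and Lrp1 (0.0208) passed in KO cells, and F8 did not in 3′F cells (0.0963, edgeR).

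Between KO and WT cells at rest, 2 of the 26 genes passed (7.69%, below the 9.40% of all genes tested), both lower in KO cells: Tfpi, the inhibitor of the tissue factor pathway (log2 difference -0.86, adjusted p = 0.0328, edgeR), and Itgb3 (-1.21, adjusted p = 0.0183, edgeR). Tfpi was at 17.5, 17.1 and 7.97 CPM in resting KO and 26.0 ± 3.12 CPM (SD, n = 3) in resting WT cells. Without resting KO replicate 3, its lowest value, the log2 difference was -0.59 and the call was lost (adjusted p = 0.0736, edgeR), while Itgb3 was at -1.25 (adjusted p = 0.0354). Without both that library and resting 3′F replicate 3, Tfpi passed (log2 difference -0.57, adjusted p = 0.0351, edgeR). Between KO and 3′F cells at rest, Mcfd2 (-0.63) and Itgb3 (-1.09) were lower and Cd47 (0.88) higher in KO cells, 3 of the 26 genes (11.5%, against 12.9% of all genes tested). Cd47 was at 185, 207 and 471 CPM in resting KO and 145 to 169 CPM in resting 3′F cells, and Mcfd2 at 143, 155 and 93.0 against 159, 186 and 263 CPM, with the most distant values in resting KO replicate 3 and, for Mcfd2, also in resting 3′F replicate 3. Without both libraries the log2 differences were -0.19 for Mcfd2, 0.31 for Cd47 and -1.19 for Itgb3, and none passed (adjusted p = 0.439, 0.327 and 0.054, edgeR). None of the 26 passed between KO and WT or KO and 3′F cells with LPS, between 3′F and WT cells, or in the tests of different responses by edgeR, but the counts moved with the settings. Over the 25 alternatives, KO against WT gave 0 to 4 calls with LPS and 0 to 8 at rest, and KO against 3′F gave 0 to 5 with LPS and 0 to 10 at rest. The comparisons of 3′F with WT cells and of the responses gave 0 in each.

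**Figure D5:**
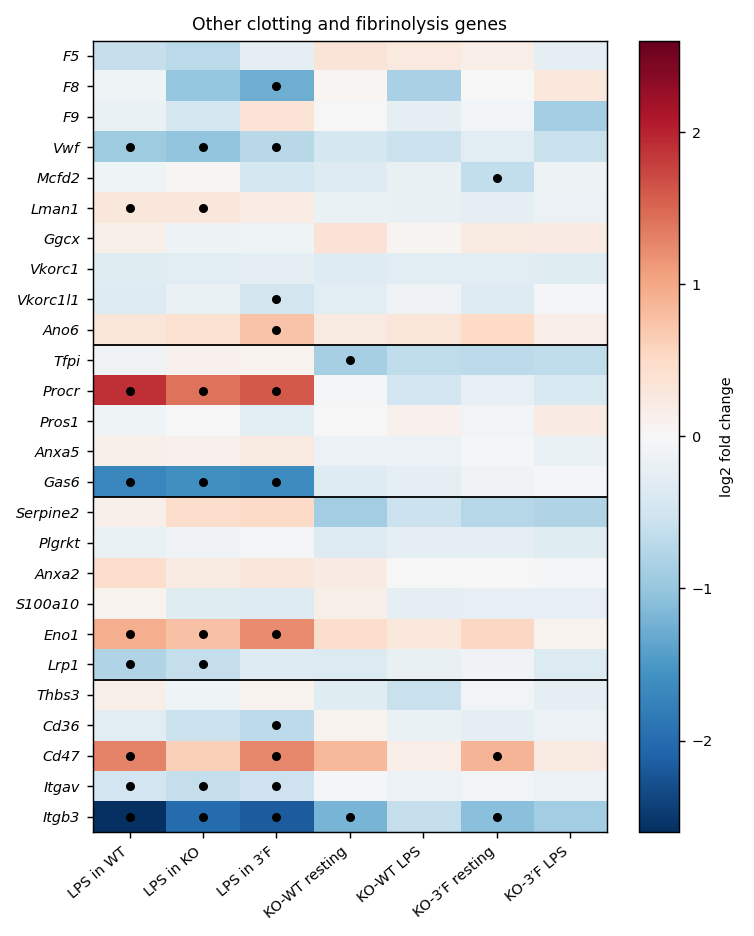
Log2 fold changes of the 26 other clotting and fibrinolysis genes that passed the filter (rows, with lines between groups of genes) in 7 comparisons (columns), as colour; dots mark an adjusted p under 0.05 by edgeR. Procr and Eno1 are higher and Gas6, Vwf, Itgav and Itgb3 lower with LPS in all 3 genotypes.

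Markers of other cells were low. Summed over each list, fibroblast markers were at most 5.29 CPM, dendritic cell markers 4.68, lymphocyte markers 1.40, mast cell markers 1.17 and liver markers 2.11, the last 4 of these highest in resting 3′F replicate 3. Endothelial markers reached 34.0 CPM, nearly all of it Kdr (29.5 CPM in resting KO replicate 3), while Pecam1 was at most 2.34 CPM. Neutrophil markers summed to 13.7 to 67.6 CPM, with Ly6g at 0 in the resting groups. The part of these cells in the levels of the 9 genes was not tested.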

How the data were processed

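RNA-seq of rRNA-depleted total RNA was made from 18 BMDM cultures with a directional kit. The authors trimmed reads with cutadapt 1.8.3, removed rRNA reads, aligned the rest to mm10 with HISAT2 2.1.0 and counted them by strand per Gencode gene with featureCounts 1.5.3. The deposited table holds these raw counts of protein-coding genes and their lengths. Groups came from the sample titles, 3 libraries each. From the counts, one edgeR 4.0.16 quasi-likelihood model (R 4.3.3) was fitted to all 6 groups, with filterByExpr (minimum count 10), TMM scaling, two-sided tests and Benjamini-Hochberg adjustment over 11357 genes. Calls were made below an adjusted p of 0.05. CPM values use the scaled library sizes, correlations a prior count of 2, and intervals are at 95%. TMM factors ran from 0.812 to 1.15. With 3 libraries against 3, an exact permutation test cannot go below 0.1, so none was used. The total per library (4071084 to 19818043) sets the precision, most of all for F3 and resting Serpinb2. No pair of replicates within a group agreed within sampling noise (chi-square per degree of freedom 7.06 or more).

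The members and the wider list were chosen with earlier results of these data known. From the wider list 1 gene is not reported here. Genes are named by these rules: all 9 members, up to 3 called genes of each subgroup and direction in the wider list, and the 3 genes most correlated with each member among those with a mean log2 CPM above 1. Marker genes and the inflammatory genes of the library check were named besides. Alternatives were DESeq2 1.42.0 (size factors, or its Wald test), no low-count filter, a fit of only the groups compared, limma 3.58.1 voom with sample weights, a replicate block and leaving out each library. The replicate block was genotype and number in the LPS and response tests, and number alone, shared across genotypes, between genotypes. The script was tested on simulated data. Gene positions and 3′ UTRs came from a GRCm38 annotation, which held 21679 of the 21734 gene identifiers, and miRNA and promoter sequences from RefSeq.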

Additional observations from a re-analysis of the deposited data

How the results depend on the processing

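Of the 25 calls of the 9 genes, 16 held in all 25 alternatives (18 that leave out 1 library, 6 other planned settings and 1 chosen after the data were seen) and 9 were lost in at least 1. No called gene turned its direction. The count of members called between KO and WT cells at rest was 2, became 4 by DESeq2 (with F10 and Plaur) and 1 when only these groups were fitted, and ran from 1 to 4 when each library was left out. With LPS it was 4 and ran from 2 to 5, with 2 without WT_LPS replicate 1, WT_LPS replicate 2 or KO_LPS replicate 3. Between KO and 3′F cells at rest the count of 4 became 0 when only these groups were fitted, where 10 genes were called in all against 1464, and ran from 1 to 4 when libraries were left out. With LPS the count of 2 became 4 by DESeq2, without the filter and with the replicate block, and 5 with only the groups fitted, by limma-voom and without KO_resting replicate 3 and 3F_resting replicate 3, and ran from 2 to 5 when libraries were left out. Genes called in all went from 1067 to 1482 by DESeq2 and to 380 with only the groups fitted (KO and WT, resting), and from 441 to 1665 and, by limma-voom, to 1842 (KO and 3′F with LPS). The causes were not tested.

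Of the 74 values that passed no test, 15 passed in at least 1 alternative and 59 in none. Those that passed in 5 or more, of F7, Plaur, Thbd, Serpinb2 and F13a1, are given beside their values above. Thbs1 with LPS passed by limma-voom in all 3 genotypes (adjusted p = 0.0233, 0.0162 and 0.0325 in WT, KO and 3′F cells), and F10 between KO and WT cells at rest in 3 alternatives, DESeq2 among them (0.0341). Other changes were of direction, in values that passed neither before nor after. On the log2 scale, limma-voom gave 0.078 for Thbd (3′F and WT, resting), -0.027 for F7 (KO and 3′F, LPS), 0.13 for F10 (difference of the KO and WT responses) and -0.046 for Thbd (difference of the 3′F and WT responses). Without the filter F3 was at 0.0065 in the latter comparison. Without KO_resting replicate 3 and 3F_resting replicate 3, Thbd was at 0.074 (3′F and WT, resting), Thbs1 at 0.12 (KO and 3′F, resting), F10 and Thbs1 at 0.027 and -0.096 (KO and WT responses) and F13a1 at 0.013 (3′F and WT responses). When 1 library, or both of these, was left out, the values ranged as follows. For F3 they ran from -0.36 to 0.52 (LPS in KO) and from -0.36 to 0.072 (KO and WT, LPS), and for F7 from -0.26 to 0.23 (KO and WT, LPS). Between 3′F and WT cells at rest they ran from -0.71 to 0.00032 for Thbs1, -0.58 to 0.36 for Serpinb2 and -0.24 to 0.075 for Thbd. With LPS they ran from -0.085 to 0.70 for F13a1, -0.071 to 0.15 for Plaur, -0.48 to 0.028 for Thbs1, -0.051 to 0.94 for Serpinb2 and -0.074 to 0.22 for Thbd. Between KO and 3′F cells Thbs1 ran from -0.54 to 0.25 at rest and from -0.19 to 0.12 with LPS. For the difference of the KO and WT responses the ranges were -0.80 to 0.067 for F10, -0.34 to 0.45 for F13a1, -0.41 to 0.22 for Plau, -0.16 to 0.73 for Thbs1 and -0.23 to 1.52 for Serpinb2. For the 3′F and WT responses they were -0.63 to 0.33 for F3, -0.11 to 0.37 for F10, -0.40 to 0.39 for F13a1, -0.24 to 0.49 for Thbs1 and -0.016 to 1.10 for Serpinb2.

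The replicate numbers were not taken as pairs, since the labels do not say that a number is a mouse and the correlation of deviations between the resting and LPS libraries of a number ran from 0.03 to 0.32, not above 0.1 in every pair. Of the 9 LPS-treated libraries 7 correlated best with the resting library of their own number, and 8 of 9 in the other direction, a hint of pairing from the data. The deposited column names also give the resting and LPS-treated libraries of a number the same letter (for example WTAm and WTAp). No label says that a letter is a mouse. Yet with 3 mice per genotype and 3 libraries in each state, the libraries of a genotype cannot all come from different mice. The main fit ignores such pairing and treats the libraries as independent, so its LPS and response p-values do not account for shared mice. With a block of genotype and number, the members called went from 4 to 5 in the LPS comparison of WT cells (F7, log2 difference 0.70). In that of KO cells they went from 5 to 7 (Plaur, -0.59, and F13a1, 0.63). Between genotypes the block was the number alone, which joins libraries of different mice. Deviations of same-numbered libraries of different genotypes correlated from -0.29 to 0.21, so that block does not bear on the pairing of states. With it the count went from 2 to 3 between KO and WT cells at rest (Plaur, -0.67). Between KO and 3′F cells it went from 4 to 3 at rest (F3 lost) and from 2 to 4 with LPS (F13a1, 1.14, and Serpinb2, 1.75). Serpinb2 between 3′F and WT cells at rest, which passed no test, was at 0.016. Depth limits F3 and resting Serpinb2 most.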
